A study of Rattus norvegicus with 6 samples.

Results

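Described here are 9 genes whose proteins mark the surface of synovial fibroblasts or anchor them to other cells, Vcam1, Icam1, Cdh11, Cdh2, Pdpn, Thy1, Fap, Cd248 and Ncam1, taken by name from the 34156 genes of the deposited count table, and each name matched a single gene. The cells were rat RA-FLS, fibroblast-like synoviocytes that line the joint, bought as a culture and labelled as wild type with rheumatoid arthritis as the disease state. In the TNF-α group 3 cultures received 10 ng/mL TNF-α, and in the TNF-α+EMO group 3 cultures received the same TNF-α with 80 μmol/L emodin (EMO), an anthraquinone of rhubarb. All 6 libraries were therefore made from cells exposed to TNF-α, and no untreated cells or cells given EMO alone were compared here. The labels give day 5 for every sample, whereas the methods of the study give a shorter incubation. The methods of the study call the 3 samples per condition biological replicates, but nothing states that the cultures came from separate animals. The p-values therefore measure the spread between these samples, which may be technical.

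Fibroblast-like synoviocytes hold the lining of the joint together by cadherins, which bind the same cadherin on the next cell and reach the actin cytoskeleton through catenins. When TNF-α acts on such cells, NF-κB switches on VCAM1 and ICAM1, immunoglobulin-family proteins to which the integrins of leukocytes attach. Podoplanin, THY1, FAP and endosialin (CD248) are surface proteins used to sort synovial fibroblasts into lining and sublining cells, and NCAM1 is an adhesion molecule best known from neurons.

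The libraries held 16813322 to 17794455 counts on genes. Genes that reached 10 counts in 3 or more libraries were tested by edgeR's quasi-likelihood test, with p-values adjusted over all 13614 genes tested. The log2 fold change (log2FC) is positive where a gene was higher with EMO, SE is its standard error, and a value after ± is the SD of 3 libraries. A normalized count is a count scaled to the same effective library size, and 3 counts in a library were taken as the floor of detection. Replicates of one group differed by more than sampling noise, by a chi-square statistic per gene that is near 1 for sampling noise alone. It was 4.72 to 5.85 between TNF-α libraries and 6.63 to 25.2 between TNF-α+EMO libraries. TNF-α+EMO replicate 3 stood apart, at 25.2 from replicate 1 and 16.1 from replicate 2, which were at 6.63 from each other. Of 9 fibroblast marker genes in the table, 7 reached 10 counts in every library and all 7 were lower with EMO, and the summed normalized count of the 9 was 212488 to 233407 with TNF-α alone against 35543 to 38255 with EMO. Since the libraries are bulk RNA, fewer cells of a type and less RNA per cell cannot be told apart, and the part of this lower marker level in the values that follow was not tested.

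Of the 9 genes, 6 passed the filter on low counts. At an adjusted p under 0.05 by edgeR, 5 of the 6 were lower with EMO (Vcam1, Cdh11, Cdh2, Fap and Ncam1), where 41.4% of all tested genes were lower, and 1 was higher (Icam1), where 39.4% were higher. With an absolute log2FC over 1 as well, 4 of the 6 were lower, against 27.8% of all tested genes. In 5 of the 6 every TNF-α+EMO library lay below every TNF-α library, which held for 42.5% of tested genes, and in Icam1 every one lay above, which held for 40.3%. Fap reached 10 counts only in its TNF-α libraries, so it could enter the test only by being lower with EMO. Without it, 4 of 5 genes were lower and 3 of 5 were lower with an absolute log2FC over 1. The list counts below likewise leave out genes that reached 10 counts in every library of 1 group only. Each is to be read beside the shares of all tested genes, 41.4% lower and 39.4% higher. The other 3 genes, Pdpn, Thy1 and Cd248, did not pass the filter, although they are used as markers of synovial fibroblasts.

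**Figure D1:**
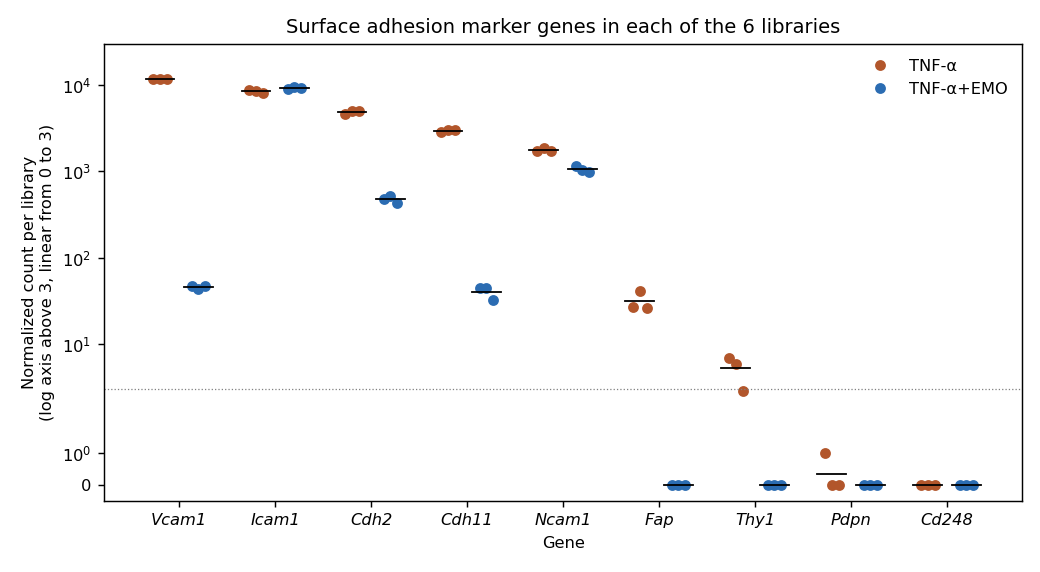
Normalized count (y axis, logarithmic above 3 and linear from 0 to 3) of each of the 9 genes in each library. Each point is a library, orange for TNF-α and blue for TNF-α+EMO, bars are means of 3 libraries and the dotted line is 3 normalized counts. Vcam1 drops from 11794 to 45.4 while Icam1 goes from 8473 to 9284, and 4 genes are at 0 in every TNF-α+EMO library.

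Vcam1 and Icam1, the adhesion molecules on which leukocytes dock, parted company under EMO. Vcam1 (ENSRNOG00000014333, chromosome 2, 219071193 to 219097619) lay among the most abundant transcripts of TNF-α-treated cells and was all but lost with EMO. Its counts were 11930, 12177 and 12120 with TNF-α alone against 45, 42 and 46 once EMO was added. The groups are far apart and each is tight, with a coefficient of variation of 0.738% in the TNF-α group and 4.68% with EMO. The normalized count fell from 11794 ± 87.0 to 45.4 ± 2.12, which left 0.385% of the TNF-α level. The log2FC was -8.02 (SE 0.08, edgeR adjusted p = 8.1e-13), and 172 of the 13614 tested genes had a lower one. Gene coordinates throughout are those deposited, on Rnor_6.0 per the submitters' notes.

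Icam1 (ENSRNOG00000020679, chromosome 8, 22035256 to 22047059) was at a high level in both groups. Its counts were 8957, 8736 and 8329 with TNF-α alone against 8847, 9217 and 9126 once EMO was added, which overlap before scaling. After scaling, the lowest TNF-α+EMO library (9125) lay just above the highest TNF-α library (8786). The means were 8473 ± 338 and 9284 ± 154 normalized counts, a 1.10-fold difference (log2FC 0.13, SE 0.06, 95% interval 0.02 to 0.24, edgeR adjusted p = 0.046). This call was lost under 11 of 13 alternatives, with an adjusted p of 0.032 to 0.76 over them, and without TNF-α replicate 1, 2 or 3 or TNF-α+EMO replicate 2 the adjusted p was 0.055, 0.11, 0.17 and 0.15.

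The ratio of Vcam1 to Icam1 inside a library hardly depends on how libraries are scaled. On the log2 scale, with 0.5 added to each normalized count, it was 0.41, 0.48 and 0.54 in the TNF-α libraries, so the former had slightly more counts than the latter. With EMO it was -7.60, -7.76 and -7.62. The difference of -8.14 is far larger than the SD of 0.06 within the TNF-α group and 0.09 within the TNF-α+EMO group. The exact two-sided permutation test gave p = 0.1 (adjusted p = 0.1 over 2 ratios), the smallest that 3 libraries against 3 allow.

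Both genes are known NF-κB targets, so the bases before their annotated start sites are shown. RefSeq sequences for the GRCr8 build were found for 4 of the 9 genes, Vcam1, Icam1, Pdpn and Fap, and not for Cdh11, Cdh2, Thy1, Cd248 and Ncam1. The 250 bases before the start are written 5′ to 3′ on the strand of the gene. Capitals mark matches on either strand to 2 NF-κB-like patterns, GGG and CCC parted by any 4 bases and GGNNNTTCC, whose letters were chosen with the sequences in view and which overlap each other at 1 Vcam1 site. The Vcam1 window lies at chr2:206742784-206743033 (minus strand) and the Icam1 window at chr8:27829595-27829844 (plus strand).
Vcam1: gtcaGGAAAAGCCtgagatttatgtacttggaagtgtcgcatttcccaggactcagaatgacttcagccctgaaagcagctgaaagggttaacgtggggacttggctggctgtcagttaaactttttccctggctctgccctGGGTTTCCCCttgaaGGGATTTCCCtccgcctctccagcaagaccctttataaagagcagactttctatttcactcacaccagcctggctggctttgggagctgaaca
Icam1: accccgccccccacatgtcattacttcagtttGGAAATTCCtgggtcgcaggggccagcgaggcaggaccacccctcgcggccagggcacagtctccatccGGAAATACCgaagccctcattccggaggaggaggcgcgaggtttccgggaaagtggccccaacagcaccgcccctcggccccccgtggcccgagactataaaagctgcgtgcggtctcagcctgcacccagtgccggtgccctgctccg

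The Vcam1 window holds GGGTTTCCCC from -108 to -99 and GGGATTTCCC from -93 to -84, counted back from the annotated start. GGG and CCC parted by 4 bases occur in 9.97% of 33469 rat windows of this length, and 1.20% hold at least 2 such matches without overlap. The Icam1 window has no match to that pattern but holds GGAAATTCC from -218 to -210 and GGAAATACC from -149 to -141. These match the pattern GGNNNTTCC, which occurs in 15.4% of windows. The share of windows with 2 or more matches to it was not computed. The Vcam1 window matches it too, at GGAAAAGCC from -246 to -238 and GGGATTTCC from -93 to -85. Both windows hold TATAAA, found on either strand in 12.9% of windows. The Pdpn and Fap windows held none of these letters. A match is a run of letters and not a shown binding site, and no window says which letters were used in these cells.

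Genes of the TNF receptors and the NF-κB pathway were not all lower. Of 10 TNF receptors and NF-κB pathway regulators, 7 were lower, 1 was higher and 2 did not pass, and the median log2FC was -0.57, where the median of all tested genes was -0.01. Tnfaip3, an inhibitor induced by NF-κB itself, fell to 113 ± 20.2 from 2316 ± 57.1 normalized counts (log2FC -4.36, SE 0.11, edgeR adjusted p = 5.4e-11). Nfkbia, which encodes the inhibitor IκBα, fell by 0.38 in log2 (SE 0.06). Rela, the subunit p65, showed a log2FC of 0.10 and an adjusted p of 0.13 by edgeR. Tnfrsf1a, the main TNF receptor, fell by 0.75, and Irf1, a factor that acts with NF-κB on Vcam1, fell by 1.38.

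**Figure D2:**
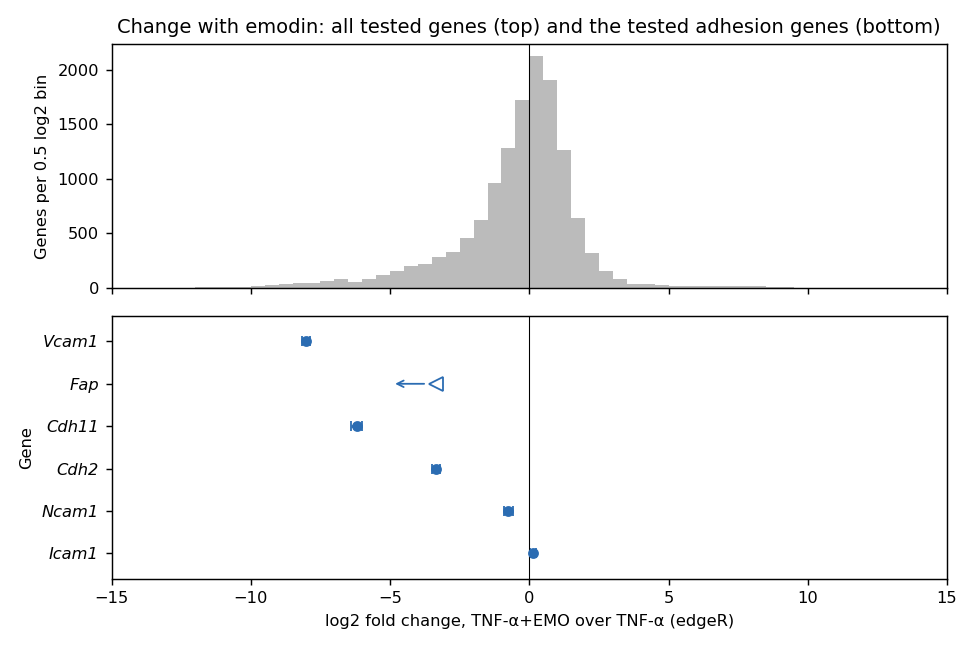
log2 fold change of TNF-α+EMO over TNF-α by edgeR (x axis), as a histogram of all 13614 tested genes in bins of 0.5 (top, number of genes) and for the 6 tested adhesion genes (bottom) with 95% intervals. The open triangle with an arrow is the bound for Fap, which had no counts with EMO. Vcam1 and Cdh11 lie in the far left tail, at -8.02 and -6.20, and Icam1 lies at the centre, at 0.13.

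The cadherins of the set both fell, but not equally. Cdh11 (ENSRNOG00000013481, chromosome 19, 2393059 to 2551245), cadherin-11, the cadherin that holds synovial lining cells to one another, had 2893, 3111 and 3114 counts with TNF-α alone against 43, 43 and 32 once EMO was added. Its normalized count fell from 2968 ± 113 to 40.3 ± 6.69 (log2FC -6.20, SE 0.11, edgeR adjusted p = 4.5e-12), and 1.36% of the TNF-α level was left. An unnamed gene that overlaps it in the deposited coordinates had no counts.

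Cdh2 (ENSRNOG00000015602, chromosome 18, 8146971 to 8360684), N-cadherin, had 4676, 5079 and 5176 counts with TNF-α alone against 463, 504 and 426 once EMO was added. It fell to 476 ± 40.9 from 4861 ± 241 normalized counts (log2FC -3.35, SE 0.08, edgeR adjusted p = 3.6e-11), which left 9.79%. The log2 ratio of Cdh11 to Cdh2 was -0.69, -0.71 and -0.73 with TNF-α alone against -3.41, -3.54 and -3.71 with EMO. The ratio thus dropped by 2.84 on the log2 scale, with no overlap between the groups (exact two-sided permutation p = 0.1, the smallest possible).

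Other cadherins fell beside them. Of 17 other classical and related cadherins, 3 reached the filter in both groups, and all 3 had an adjusted p under 0.05 and were lower, and their median log2FC was -5.42. Cdh3, P-cadherin, showed a log2FC of -6.73 (SE 0.14), Cdh13, a cadherin anchored by a lipid, -5.42 (SE 0.13) and Cdh24 -2.43 (SE 0.17). Cdh18 had 244 ± 16.3 normalized counts with TNF-α alone and was at the floor in all 3 libraries with EMO, at least 79.5-fold lower, and it passed the filter only through its TNF-α libraries. No counts in any library were found for 9 of the 17.

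Per kilobase of gene length, the 19 cadherins together summed to 3243 ± 75.4 normalized counts in the TNF-α group and 173 ± 14.3 with EMO, 18.8-fold less. What remained was mostly N-cadherin. Cdh2 made up 34.5% ± 0.93 of this sum in the TNF-α group and 63.6% ± 4.35 with EMO, whereas Cdh11 went from 17.7% ± 0.30 to 4.52% ± 0.78 and Cdh3 from 28.8% ± 0.54 to 5.02% ± 1.28. Cdh24 rose in share from 6.03% ± 0.30 to 20.9% ± 4.70 although its own normalized count fell. For each of these 4 shares the groups did not overlap. This sum was chosen after the values were seen.

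**Figure D3:**
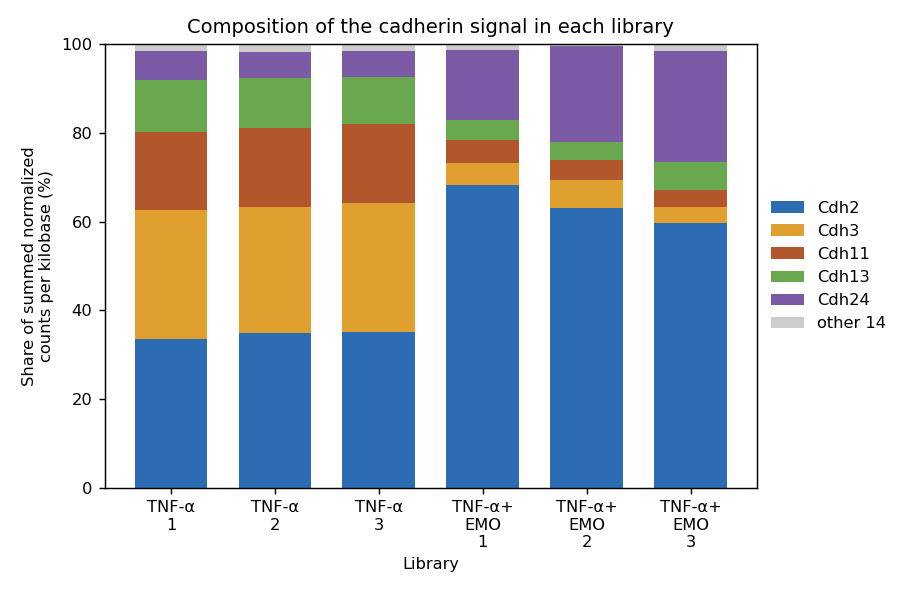
Share of each cadherin in the summed normalized counts per kilobase of 19 cadherin genes (y axis, percent) in each of the 6 libraries (x axis). Colours mark the 5 genes with the largest shares and grey the other 14. Cdh2 fills 33.5% to 35.2% of the bar with TNF-α alone against 59.6% to 68.2% with EMO.

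Catenins link the inner side of cadherins to actin. Of the 9 catenins and cadherin adaptors listed, 6 were tested, and 5 were lower and 1 higher with EMO, and the median log2FC was -1.28. Vcl, vinculin, which ties adhesion sites to actin, fell to 1298 ± 141 from 4437 ± 130 normalized counts (log2FC -1.77, SE 0.08, edgeR adjusted p = 3.9e-09). Ctnnb1, β-catenin, fell by 1.35, Jup, plakoglobin, fell by 1.39 and Ctnnd1, p120 catenin, fell by 1.22. Ctnna1, α-catenin, rose from 7669 ± 199 to 9410 ± 512 (log2FC 0.30, SE 0.06, edgeR adjusted p = 8.3e-04).

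Ncam1 (ENSRNOG00000031890, chromosome 8, 53839098 to 53901358) was the least changed of the genes that fell. Its counts were 1750, 1929 and 1758 with TNF-α alone against 1128, 1001 and 953 once EMO was added, so the groups do not overlap. The normalized count fell from 1770 ± 96.2 to 1053 ± 99.5, leaving 59.5% (log2FC -0.75, SE 0.08, edgeR adjusted p = 6.2e-06). NCAM1 can carry polysialic acid and can signal through FGF receptors. Of 4 polysialyltransferase and FGF receptor genes, 1 reached the filter in both groups and was higher. That gene, Fgfr2, rose by 0.42 in log2 (SE 0.07). St8sia4, a polysialyltransferase, passed only through its TNF-α libraries, with 45, 46 and 57 counts there and 7, 2 and 4 with EMO. Fgfr1 had 3 counts or fewer in every library.

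Fap (ENSRNOG00000005679, chromosome 3, 48467781 to 48536235), a membrane protease of activated fibroblasts, was low from the start. It had 27, 42 and 27 counts with TNF-α alone against 0, 0 and 0 with EMO. Against the floor of 3 counts per library it dropped with EMO by a factor of at least 10.2, from 31.2 ± 8.41 normalized counts. Its fitted log2 fold change rests on the small count edgeR adds, and neither it nor its p is given. Dpp4, its closest relative, had 6, 5 and 4 counts with TNF-α and 2, 2 and 0 with EMO, too few to test. Of the 7 genes of the prolyl oligopeptidase family listed beside Fap, 4 were tested, 1 lower and 3 higher, and the median log2FC was 0.50. Prepl rose from 770 ± 36.7 to 2615 ± 299.8 normalized counts (log2FC 1.76, SE 0.09, edgeR adjusted p = 1.0e-08), and Dpp9 fell by 0.29 in log2 (SE 0.07).

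Thy1, Pdpn and Cd248 were at or close to 0 in all libraries. Thy1 (ENSRNOG00000006604, chromosome 8, 48382121 to 48386935), the marker of sublining fibroblasts, had 7, 6 and 3 counts with TNF-α alone against 0, 0 and 0 with EMO. It was below the filter, and against the floor of 3 counts per library it was lower with EMO by a factor of only about 1.7. As for Fap, its fitted value and p without the filter are not given. Pdpn (ENSRNOG00000014961, chromosome 5, 161947137 to 161981441), podoplanin, had 1 count in TNF-α replicate 1 and 0 in each of the other libraries. Cd248 (ENSRNOG00000052685, chromosome 1, 220353356 to 220355650), endosialin, had 0 counts in every library, which allows up to 3 counts per library. At this depth no difference between the groups could be seen for Pdpn or Cd248. The ratios of Pdpn to Thy1, Fap to Dpp4 and Cd248 to Pdpn were set out to be compared too, but both genes were at the floor in at least 1 group, so 2 of 5 ratios were computed.

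The relatives and partners of these genes were not uniformly absent. The 3 genes of the endosialin family listed, Cd93, Thbd and Clec14a, had 0 counts in every library. Of 7 podoplanin partners, 5 reached the filter in both groups, 2 lower, 1 higher and 2 not called, and their median log2FC was -0.05. Another, Cd9, passed only through its TNF-α libraries. Msn, moesin, which links podoplanin to actin, fell by 0.86 in log2 (SE 0.07), and Rdx, radixin, rose by 0.40 (SE 0.09). Cd44, the hyaluronan receptor, had 5289 and 5110 normalized counts in the TNF-α and TNF-α+EMO groups and an adjusted p of 0.53 by edgeR.

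Per kilobase of gene length, the order of the 9 genes changed between the groups. In the TNF-α group it ran from Icam1 (3206 ± 128 normalized counts per kilobase) through Vcam1 (2943 ± 21.7), Cdh2 (1120 ± 55.7), Cdh11 (574 ± 21.9) and Ncam1 (400.2 ± 21.7) to Fap (13.6 ± 3.66) and Thy1 (3.93 ± 1.54). Neighbours in this order did not overlap over the libraries down to Thy1, while Pdpn and Cd248 did. With EMO the order was Icam1 (3513 ± 58.1), Ncam1 (238 ± 22.5), Cdh2 (109.6 ± 9.43), Vcam1 (11.3 ± 0.53) and Cdh11 (7.79 ± 1.29), again without overlap between neighbours, and the other 4 were at 0. Ranked by level per kilobase among all tested genes, Vcam1 went from percentile 96.8 to 13.99, Cdh11 from 78.6 to 11.5 and Cdh2 from 89.9 to 43.2, whereas Icam1 went from 97.2 to 96.2. The deposited FPKM values gave the same order in both groups.

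**Figure D4:**
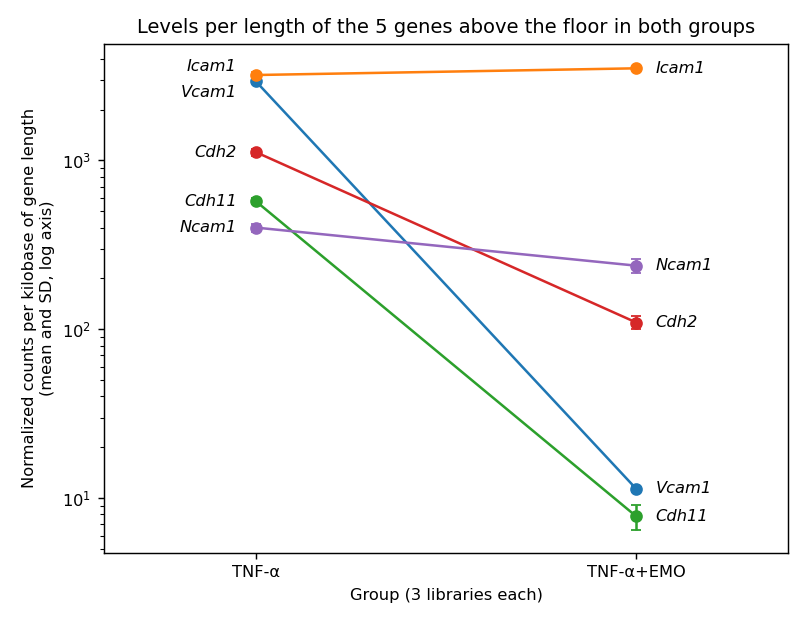
Normalized counts per kilobase of gene length (y axis, logarithmic) of the 5 genes above the floor in both groups, as the mean of 3 libraries with its SD, with a line joining the TNF-α and TNF-α+EMO means of a gene. Icam1 stays near 3206 to 3513, Ncam1 ends above Cdh2, and Vcam1 falls from the level of Icam1 to 11.3.

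Of 28 other immunoglobulin-family adhesion molecules, 11 reached the filter in both groups, 5 lower and 6 higher at an adjusted p under 0.05, with a median log2FC of 0.24. Over all tested genes 41.4% were lower and 39.4% were higher. A further 6 passed through 1 group only. F11r, a junctional adhesion molecule, fell to 29.4 ± 6.80 from 201 ± 10.0 normalized counts (log2FC -2.77, SE 0.20, edgeR adjusted p = 2.3e-07). Nectin3, which pairs with nectins on the next cell, rose from 214 ± 20.9 to 584 ± 98.1 (log2FC 1.45, SE 0.13, edgeR adjusted p = 1.5e-06). Of the relatives of Icam1, Icam5 was at 66.7 and 13.0 normalized counts in the TNF-α and TNF-α+EMO groups and was lower with EMO, and Icam2, which passed only through its TNF-α libraries, was at 24.1 and 6.13.

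Of 12 integrins and syndecans that bind VCAM1, ICAM1 or THY1, 5 reached the filter in both groups, 4 lower and 1 higher, and their median log2FC was -1.50. A further 3 passed through 1 group only. Itgb5 fell to 485 ± 38.7 from 15249 ± 637 normalized counts (log2FC -4.98, SE 0.08, edgeR adjusted p = 3.2e-12). Itgax, which overlaps Itgam with up to 14 counts, rose from 475 ± 23.3 to 1794 ± 21.4 (log2FC 1.92, SE 0.07, edgeR adjusted p = 7.7e-10). Itgb2, of the same list, had 0, 6 and 1 counts with TNF-α alone and 0, 1 and 0 with EMO. Itga4, the α4 subunit by which leukocytes bind VCAM1, had at most 2 counts in any library.

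Of 10 genes for sheddases and γ-secretase subunits, enzymes that cut adhesion molecules from the cell surface, 5 were lower, 4 were higher and 1 did not pass, where 41.4% and 39.4% of all tested genes were lower and higher, and the median log2FC was -0.25. Adam17, which can shed VCAM1, fell to 1478 ± 122 from 5413 ± 146 normalized counts (log2FC -1.87, SE 0.07, edgeR adjusted p = 1.0e-09), and Adam10, which can cut N-cadherin, fell by 1.15 in log2 (SE 0.09). Psenen, a γ-secretase subunit, rose by 1.02 (SE 0.07).

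**Figure D5:**
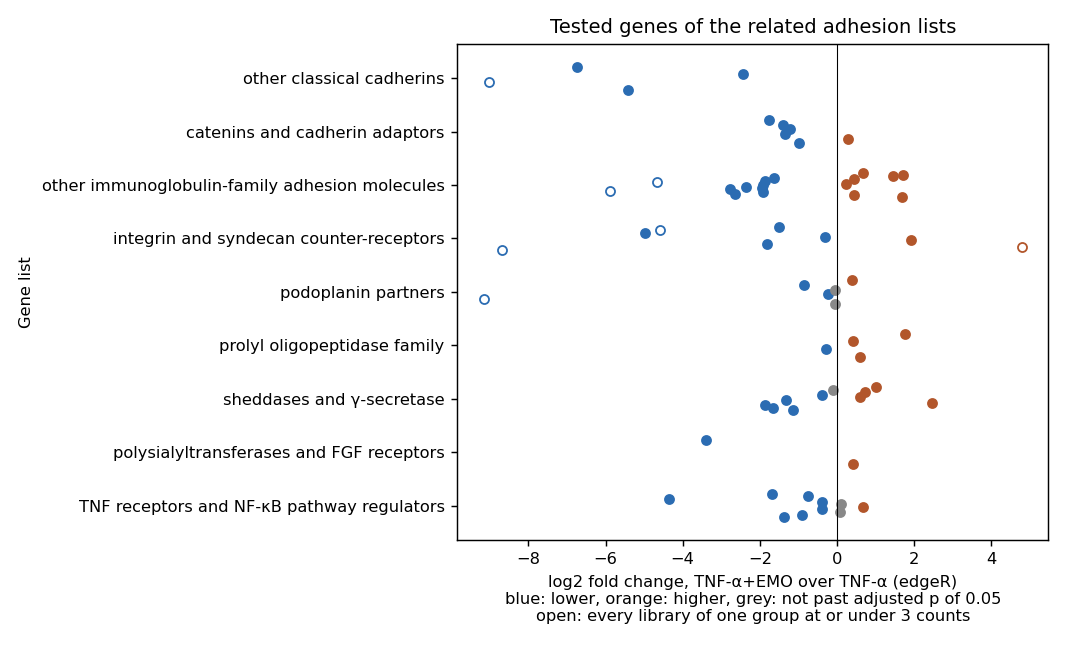
log2 fold change of TNF-α+EMO over TNF-α by edgeR (x axis) for each tested gene of 9 related gene lists (y axis). Blue points were lower, orange points higher and grey points not past an adjusted p of 0.05, and open points are genes with every library of 1 group at 3 counts or fewer, whose position depends on the small count edgeR adds. The cadherin genes all lie left of -2, while the immunoglobulin-family genes lie on both sides of 0.

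Markers of fibroblasts and of other cells were read in the same libraries. Of the fibroblast markers, Col1a1, the main collagen chain, fell by 4.91 on the log2 scale and Pdgfra fell by 6.59, and Vim, vimentin, fell by 0.92, whereas Dcn, which passed the filter only through its TNF-α+EMO libraries, was at 28.4 with EMO against 1.62 normalized counts. Of 5 synovial lining markers 3 were tested, 2 lower and 1 higher. The summed normalized count of the 5 was 17370.5 to 19611 with TNF-α alone against 11968 to 16647 with EMO. Most of it was Mmp3, at 18354 with TNF-α and 13179 with EMO. The lower genes, Mmp3 and Hbegf, fell by 0.48 and 1.38 in log2. The higher gene, Cd55, rose from 153 ± 23.7 to 757 ± 96.0 normalized counts (log2FC 2.31, SE 0.14, edgeR adjusted p = 3.6e-08). Prg4, lubricin, had 4 counts or fewer in every library. Of 5 sublining markers 3 reached the filter in both groups and all 3 were lower, and Cd34 was at 0 throughout. The summed normalized count of the 5 was 4271 to 4860 with TNF-α alone against 417 to 438 with EMO. It included Cxcl12, at 2777 with TNF-α and 0 with EMO, which passed the filter only through its TNF-α libraries. Of 8 macrophage markers 2 were tested, 1 lower and 1 higher, and Ptprc, which marks all leukocytes, had at most 1 count. The sum of the 8 was 1203 to 1306 with TNF-α and 734 to 804 with EMO. Most of it was Cd14, at 1093 normalized counts with TNF-α and 510 with EMO.

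Of 7 endothelial markers 1, Vwf, was tested, through its TNF-α libraries only, with sums of 70.2 to 76.5 and 16.3 to 22.7, and Kdr and Emcn were at 0. Of 6 mural markers 3 reached the filter in both groups, 2 lower and 1 not called, and Rgs5 was at 0. The sums of the 6 were 989 to 1063 and 76.7 to 92.7. They included Acta2, at 458 normalized counts with TNF-α and 0.34 with EMO, which passed only through its TNF-α libraries. Of 6 epithelial markers 1 reached the filter in both groups and was lower, with sums of 9950 to 10806 and 1984 to 2333, nearly all of it Krt8, and Epcam was at 0. Cldn4 passed only through its TNF-α+EMO libraries, with 16, 17 and 28 counts there and 0 in each TNF-α library. Of 5 T cell markers none was tested, and their sum was at most 7.85 in any library. The part of these cells in the values of the 9 genes was not tested.

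The genes whose change over the 6 libraries lay closest to Vcam1 were sought among 9405 named genes with a mean of at least 100 normalized counts, by the distance between log2 CPM values centred on their mean. They included Dpep1 and Thbs1, at a distance of 0.32 and 0.33. Thbs1, thrombospondin-1, had 33126 and 120.3 normalized counts in the TNF-α and TNF-α+EMO groups, and Dpep1 had 416 against 0, so its distance depends on the count added before the logarithm. For Icam1 they were Afg3l2, Gtf3c2 and Inppl1, at 0.05, 0.06 and 0.07, and none of these 3 passed an adjusted p of 0.05.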

How the data were processed

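RNA was sequenced from 6 cultures of rat RA-FLS, 3 per group, and every sample was grouped by its treatment label. The authors deposited raw counts per gene and FPKM values (scaled by gene length and library size) together with gene lengths, and a comparison of their own that was not used. Per the submitters' processing notes, reads were checked with FastQC, trimmed with Trimmomatic and aligned to Rnor_6.0 with HISAT2. How reads were assigned to genes (program, strand, annotation) is not given in the sources used here, and coordinates are as deposited.

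Genes reaching 10 counts in 3 or more libraries entered the fit. Scaling was by TMM and the test by edgeR 4.0.16 under R 4.3.3 (robust quasi-likelihood fit, no covariate, Benjamini-Hochberg adjustment). A standard error is the log2 fold change divided by the square root of F, and 95% intervals take 1.96 standard errors. Floors of 3 counts cover counting error only. The fits, DESeq2 1.42.0 included, were tested on simulated data. Far fewer genes were changed there than were called here, so that test does not cover the scaling at this setting. Log2 CPM used a prior count of 2. Permutation tests used scipy 1.17.1.

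The members, gene lists and tests were chosen with earlier results of these data known. All members were named. In each list except the marker lists, the called genes with the lowest and highest log2 fold change were named. These had a mean of at least 100 normalized counts. Partners in a ratio and 3 genes closest to the members with the lowest and highest log2 fold change were named too. Other genes were named after their values were seen. Ctnna3, Pecam1 and Col1a2 were not analysed here. Another gene among the closest and 1 marker list are not reported here. Alternatives were DESeq2, other scalings, other filters, the replicate block, a log2 threshold of 2, FPKM, an added count of 5, and each library left out in turn with the tested genes kept.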

Additional observations from a re-analysis of the deposited data

How the results depend on the processing

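The direction and the call of Vcam1, Cdh11, Cdh2 and Ncam1 were kept under 13 alternatives. Fap was called lower under 12 and was untested with at least 50 counts in 3 libraries. It reached 10 counts only in its TNF-α libraries, so its calls under that filter add no support. Icam1 kept its direction under 13 alternatives and its call under 2. The count of members called higher was therefore 0 with DESeq2, RLE or upper quartile scaling, library totals, no filter on low counts, the filter of 50 counts and the replicate block (also 0 at an unadjusted p under 0.05 by edgeR and by DESeq2 in each), and 0 to 1 when a library was left out. Library totals moved the median of all tested genes to -0.12 and no filter moved it to -0.13, and library totals gave Icam1 a log2 fold change of 0.02. With a log2 threshold of 2, 2255 of all tested genes were lower and 809 higher. The correlation of the deviations of same-numbered libraries was 0.02, -0.01 and 0.07, and that of differently numbered libraries -0.07 to 0.05. With 3 libraries per group this cannot decide whether the numbers pair the libraries. With the replicate block 5 members, Fap included, were lower and Icam1 had a log2 fold change of 0.13 with an adjusted p of 0.086 by edgeR. Over the fits that left out a library, 5 members, Fap included, were lower, and the Vcam1 log2 fold change was -8.05 to -7.98. With a library left out, the log2 ratio differences were -8.17 to -8.09 (Vcam1 to Icam1) and -2.91 to -2.76 (Cdh11 to Cdh2). The exact two-sided permutation p was 0.2 for each of these. With 5 added to each count the differences were -8.00 and -2.70. With no filter Thy1 was called lower as well, but it had 0 counts in every TNF-α+EMO library and few with TNF-α, so this call adds no support. The depth limits what can be said of Thy1, Pdpn and Cd248. DESeq2 and the block changed none of the counts over the full lists. The counts that leave out genes passing through 1 group only come from the main fit and were not recomputed.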
